A study of Rattus norvegicus with 10 samples.

Results

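The sarcomere proteins of slow muscle fibres were followed through 10 RNA-seq libraries of rat muscle. The members were the rows of the deposited expression table whose symbol was Myh7, Myh7b, Myh6, Tnni1, Tnnc1, Tnnt1, Myl2, Myl3, Tpm3 or Myoz2, which gave 11 transcripts of 10 symbols among 17221 transcripts of 16497 symbols. Tpm3 had 2 transcripts and each other symbol had 1. All 11 transcripts passed the filter on low values, as did 10259 transcripts (59.6%) of the table. They were chosen as genes of 1 fibre type, with earlier results of these data known, so they are not a set picked blind to its values.

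The libraries came from 10 female Wistar rats in which arthritis had been induced with collagen (CIA), a model of rheumatoid arthritis, in 5 groups of 2 animals. The age of the animals is not given in the sources used here. RA_0 was taken before any therapy, so that the control group also carried the disease. AP_1h and AP_34d were taken 1 h and 34 days after acupuncture was begun, in which a needle was inserted and twirled on both sides of the lower back and below the knee. PLA_1h and PLA_34d were taken at the same times in rats given saline into the peritoneum once a week. The tissue was muscle beneath the epidermis, cut from around the stimulated points, and every library came from its own animal. The sources do not say which of the points a sample came from.

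Skeletal muscle is a mixture of slow and fast fibres, and each type builds its sarcomeres from its own set of paralogous proteins. In slow fibres the motor is the beta myosin heavy chain of Myh7, with its ventricular light chains, and the thin filament is switched by slow troponin I, C and T on a slow tropomyosin. Postural muscles such as the soleus are rich in slow fibres, whereas the superficial muscles of rodents are mostly fast. If only the share of slow fibres in a piece of tissue differs, all of these transcripts differ by the same factor and their ratios within a library stay as they were. A ratio between members is also free of library depth and scaling.

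Libraries held between 5371687 and 8899521 counted reads. Levels are given in CPM, counts per 1000000 reads after TMM scaling by the authors, so that 4.19 to 10.1 reads made 1 CPM. A transcript with no read in a library may still stand at 0.297 to 0.716 CPM there, the worth of 3 reads (counting error only). The tissue label was checked against markers of skeletal muscle, of which the table holds 5 of 8, among them Acta1 and Ckm, and their summed levels lay between 73876 and 224920 CPM. PLA_34d replicate 1 stood apart. Its summed leukocyte markers (7 of 7 in the table, with Ptprc at 0 in all libraries) reached 239.3 CPM against between 7.87 and 66.7 CPM in the other 9 libraries.

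The 3 myosin heavy chain genes each carry a microRNA within their span, and these are shown because they are the best known regulators encoded by slow fibre genes. The mature sequences from RefSeq (build GRCr8) are printed with the seed, bases 2 to 8, in capitals. The 3p strands of the miR-208 pair share 1 seed, and the seed of miR-499-5p differs from it only in the last base.
rno-miR-208b-3p: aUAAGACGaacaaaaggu
rno-miR-208a-3p: aUAAGACGagcaaaaagc
rno-miR-499-5p: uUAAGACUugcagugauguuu
The first lies in Myh7 (GRCr8 chromosome 15, 32421648 to 32421665, minus strand), the second in Myh6 (chromosome 15, 32395568 to 32395585, minus strand) and the third in Myh7b (chromosome 3, 164570616 to 164570636, plus strand). Libraries of long RNA such as these do not measure mature microRNAs.

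Upstream windows of the members were read from RefSeq as well, 250 bases before the start of each gene, since the members moved together between libraries. Windows were found for 8 of the 10 symbols, Myl2 and Tnnc1 being the other two, and 3 are printed because they hold the less common of the motifs searched. Capitals mark the E-box CANNTG, the MCAT element CATTCC, the MEF2 core CTANNNNTAG and the TATA box TATAAA, each searched on both strands.
Tnnt1: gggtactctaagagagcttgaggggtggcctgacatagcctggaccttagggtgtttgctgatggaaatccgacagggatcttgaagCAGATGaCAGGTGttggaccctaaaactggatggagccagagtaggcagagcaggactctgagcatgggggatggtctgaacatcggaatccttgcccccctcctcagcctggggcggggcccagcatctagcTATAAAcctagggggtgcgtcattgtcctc
Myl3: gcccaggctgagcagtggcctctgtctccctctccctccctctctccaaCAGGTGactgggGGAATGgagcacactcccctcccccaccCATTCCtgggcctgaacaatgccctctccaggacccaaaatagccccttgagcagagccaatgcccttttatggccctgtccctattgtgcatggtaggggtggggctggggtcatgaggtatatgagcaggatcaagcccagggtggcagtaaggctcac
Myoz2: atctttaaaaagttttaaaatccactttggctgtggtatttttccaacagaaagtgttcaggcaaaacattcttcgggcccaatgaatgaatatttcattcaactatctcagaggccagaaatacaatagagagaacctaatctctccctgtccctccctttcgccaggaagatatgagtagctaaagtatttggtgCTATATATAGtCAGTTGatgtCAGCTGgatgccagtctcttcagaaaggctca
The windows are GRCr8 chromosome 1, 78348785 to 78349034, plus strand, for Tnnt1, chromosome 8, 119616844 to 119617093, plus strand, for Myl3, and chromosome 2, 213852779 to 213853028, minus strand, for Myoz2. Of 33469 windows of the same length, 65.5% held the E-box, 12.9% the TATA box, 12.1% the MCAT element and 3.41% the MEF2 core. Among the 10 windows of the 8 members the E-box was in 8, the MCAT element in 2 (Myl3 and Myh6), the MEF2 core in 1 (Myoz2) and the TATA box in 1 (Tnnt1). A match is a description of letters and not a site of binding.

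Myh7 encodes the beta or slow myosin heavy chain, the motor protein of slow fibres. Its transcript (NM_017240, rn4 chromosome 15, 33072928 to 33094595, minus strand) stood at 7398 and 4565 CPM in RA_0, at 361 and 372 CPM in AP_1h, at 2235 and 579 CPM in PLA_1h, at 4064 and 813 CPM in AP_34d and at 11934 and 499 CPM in PLA_34d, replicate 1 first. High values were thus found in both RA_0 libraries and in the first library of each 34 day group, and low values in both AP_1h libraries and in the second library of each other treated group. The PLA_34d animals differed 23.9-fold from each other, which is more than the 16.3-fold by which the mean of AP_1h (367 ± 7.66 CPM, SD, n = 2) lay under that of RA_0 (5982 ± 2004 CPM).

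Myh6, the alpha heavy chain of atrial and some jaw and eye muscle, lies beside Myh7 on the same strand (NM_017239, chromosome 15, 33044506 to 33068098) and is nearly identical to it in sequence, so reads may have been split between them. It stood at 1952 and 1113 CPM in RA_0, 98.2 and 96.4 CPM in AP_1h, 526 and 153 CPM in PLA_1h, 1082 and 180 CPM in AP_34d and 2573 and 121 CPM in PLA_34d. These values put the libraries in the same order as Myh7 but for the close pair of AP_1h. Of the genes that mark heart muscle, Nppb was at 0 in all libraries, and Nppa, Myl7, Mybpc3 and Tnni3 did not exceed 0.391 CPM in any. Tnnt2 (between 0.973 and 12.7 CPM) and Actc1 (between 15.6 and 516.6 CPM), which developing or regenerating skeletal muscle also expresses, were present.

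Myh7b is an ancient slow myosin expressed at low level (NM_001107794, chromosome 3, 146115687 to 146139441, plus strand). It stood at 79.7 and 71.3 CPM in RA_0, 16.97 and 9.38 CPM in AP_1h, 53.4 and 11.6 CPM in PLA_1h, 25.2 and 11.5 CPM in AP_34d and 141 and 18.6 CPM in PLA_34d. The first AP_34d library, which was high in Myh7, lay under both RA_0 libraries and PLA_1h replicate 1 in Myh7b.

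Myl2 encodes the regulatory and Myl3 the essential light chain that slow fibres share with the ventricle. Myl2 (NM_001035252, chromosome 12, 35653745 to 35664700, minus strand) stood at 2232 and 873 CPM in RA_0, 88.4 and 92.5 CPM in AP_1h, 247 and 191 CPM in PLA_1h, 1193 and 86.3 CPM in AP_34d and 1125 and 127 CPM in PLA_34d. Myl3 (NM_012606, chromosome 8, 115140705 to 115146827, plus strand) stood at 5177 and 1756 CPM in RA_0, 231 and 307 CPM in AP_1h, 409 and 627 CPM in PLA_1h, 2979 and 490 CPM in AP_34d and 2631 and 699 CPM in PLA_34d. Both differed from Myh7 in PLA_1h, where the first library was 3.86-fold above the second in Myh7, but only 1.29-fold above it in Myl2 and under it in Myl3.

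The troponin complex places the calcium switch on the thin filament, with Tnni1 as its inhibitory, Tnnc1 as its calcium-binding and Tnnt1 as its tropomyosin-binding subunit in slow fibres. Tnni1 (NM_017184, chromosome 13, 48830442 to 48841258, plus strand) stood at 1472 and 828 CPM in RA_0, 74.7 and 94.6 CPM in AP_1h, 354 and 136 CPM in PLA_1h, 872 and 140 CPM in AP_34d and 1098 and 107 CPM in PLA_34d. Tnnc1 (NM_001034105, chromosome 16, 6639357 to 6642331, plus strand) stood at 1798 and 1019 CPM in RA_0, 111 and 123 CPM in AP_1h, 427 and 171 CPM in PLA_1h, 1018 and 157 CPM in AP_34d and 1359 and 141 CPM in PLA_34d. Tnnt1 (NM_134388, chromosome 1, 68036411 to 68045142, plus strand) stood at 1874 and 1015 CPM in RA_0, 105 and 131 CPM in AP_1h, 500.2 and 136 CPM in PLA_1h, 1010.3 and 203 CPM in AP_34d and 1736 and 129 CPM in PLA_34d. In all 3 subunits RA_0 replicate 1 was at the top, followed by PLA_34d replicate 1. RA_0 replicate 2 and AP_34d replicate 1 came next, the latter ahead in Tnni1 and the former in Tnnc1 and Tnnt1. PLA_1h replicate 1 followed them.

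Tpm3 encodes the slow tropomyosin of muscle and, from other transcripts, tropomyosins of many other cells. The sources used here do not say which of the transcripts below, if either, encodes the muscle form. NM_057208 (chromosome 2, 182304036 to 182323189, plus strand) stood at 46.5 and 6.39 CPM in RA_0, 1.84 and 0.840 CPM in AP_1h, 4.56 and 1.40 CPM in PLA_1h, 16.2 and 2.24 CPM in AP_34d and 16.5 and 1.14 CPM in PLA_34d. NM_173111 (182303994 to 182324984) stood at 39.8 and 40.5 CPM in RA_0, 36.2 and 21.5 CPM in AP_1h, 28.7 and 17.7 CPM in PLA_1h, 43.9 and 28.2 CPM in AP_34d and 103 and 21.9 CPM in PLA_34d. The first varied 55.4-fold between its highest and lowest library, against 33.0-fold for Myh7, and the second varied 5.81-fold. The transcripts overlap, and a read that fits both was dropped in the counting, so these levels rest on the reads they do not share, as few as 6 in a library for NM_057208.

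Myoz2 encodes calsarcin-1, a protein of the Z-disc in slow and heart muscle that binds calcineurin. Its transcript (NM_001106469, chromosome 2, 219702470 to 219729176, minus strand) stood at 1119 and 370 CPM in RA_0, 51.9 and 81.4 CPM in AP_1h, 215 and 164 CPM in PLA_1h, 723 and 103 CPM in AP_34d and 407 and 75.9 CPM in PLA_34d. RA_0 replicate 1 and AP_34d replicate 1 were the highest libraries here, and PLA_34d replicate 1 came next after RA_0 replicate 1 and AP_34d replicate 1.

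**Figure D1:**
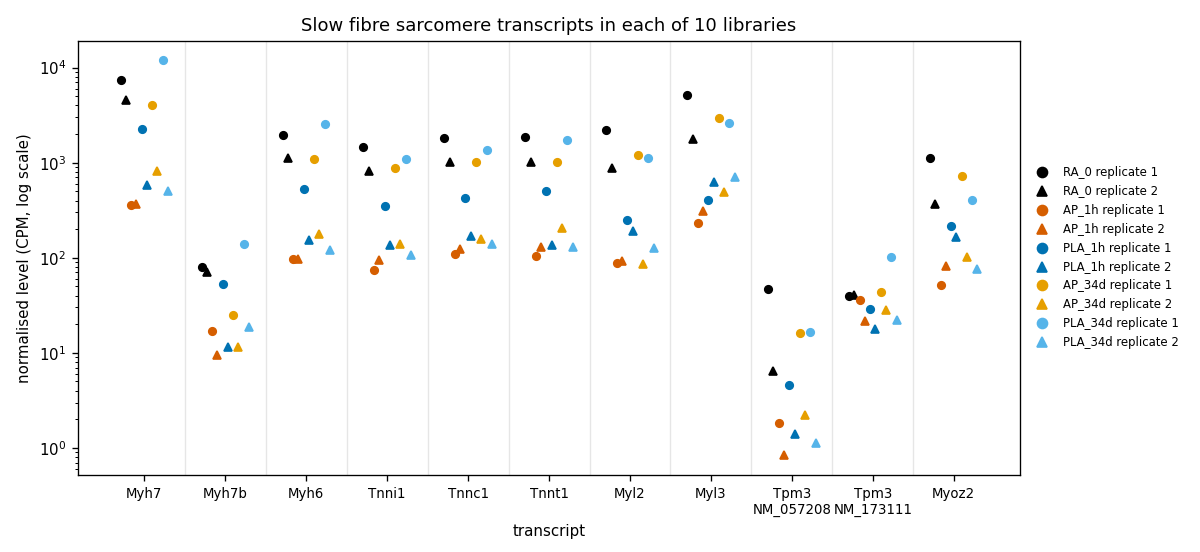
Normalised level of each slow fibre transcript (CPM, log scale) in each of the 10 libraries, coloured by group, with circles for replicate 1 and triangles for replicate 2. In Myh7 both AP_1h libraries lie at 361 and 372 CPM, while the PLA_34d libraries lie at 11934 and 499 CPM.

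Over the 11 transcripts the fold between the highest and the lowest library ran from 5.81 to 55.4. The highest library was RA_0 replicate 1 for 7 transcripts and PLA_34d replicate 1 for 4, and the lowest was 1 of the AP_1h libraries for 9. Replicates differed by a median of 1.78-fold in RA_0 and 1.27-fold in AP_1h, but by 2.60-fold in PLA_1h, 6.08-fold in AP_34d and 9.64-fold in PLA_34d. In both 34 day groups all 11 transcripts were higher in replicate 1. The members together took 1.81% (95% Wilson interval 1.80% to 1.82%) and 1.28% (1.27% to 1.29%) of the reads in RA_0, 0.139% (0.136% to 0.141%) and 0.121% (0.119% to 0.124%) in AP_1h, 0.567% (0.562% to 0.572%) and 0.180% (0.177% to 0.183%) in PLA_1h, 1.14% (1.13% to 1.15%) and 0.234% (0.231% to 0.238%) in AP_34d, and 3.02% (3.01% to 3.04%) and 0.185% (0.182% to 0.189%) in PLA_34d. These intervals hold the counting error within 1 library and not the spread between animals. By share of reads the first PLA_34d library was the highest of the 10, while by summed CPM it lay at 23121 CPM beside 23189 CPM in RA_0 replicate 1. The second PLA_34d library stood at 1941 CPM, above only the AP_1h pair (1177 and 1330 CPM). In whole tissue, fewer slow fibres and less slow fibre RNA per fibre cannot be told apart.

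AP_1h was set against RA_0 to find what differed 1 h after the first needling. All 11 transcripts were lower in both AP_1h libraries than in both RA_0 libraries, against 21.0% of all transcripts tested. The median log2 change of the members was -3.52, against 0.00 for all transcripts tested. limma called none of them at an adjusted p under 0.05 (0.0292% of all transcripts were called), with adjusted p between 0.241 and 0.854, while 10 had an unadjusted p under 0.05 (5.27% of all transcripts, lower), and edgeR and limma-voom also called 0. The same 10, all but NM_173111 of Tpm3, met the rule of the study (unadjusted p under 0.05 and at least 2-fold, with a mean of at least 1 CPM), which 3.59% of all transcripts met in the lower direction.

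The largest differences were in the heavy chains, at a log2 change of -3.98 ± 1.29 (SE) for Myh7 and -3.91 ± 1.25 for Myh6, and in Myl2 at -3.93 ± 1.17. Among the 10 that met the rule of the study, those with the smallest error were Myl3 at -3.50 ± 0.89 (limma adjusted p 0.241), Myoz2 at -3.29 ± 0.95 (0.305) and Myh7b at -2.48 ± 0.88 (0.434). Tnni1 at -3.70 ± 1.05, Tnnt1 at -3.54 ± 1.12 and Tnnc1 at -3.52 ± 1.04 lay within 1 SE of each other. NM_173111 of Tpm3 differed by -0.51 ± 0.61, less than its error. These values are on the scale of log2(CPM + 1), which understates the change of low transcripts such as NM_057208 (-3.04 ± 1.13).

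The call depended on how the spread was estimated. Fitted on the 4 libraries of these groups alone, which leaves out the wide spread of the 34 day groups, limma called 9 members, all but the transcripts of Tpm3 (adjusted p between 0.00360 and 0.0163), with 1.05% of all transcripts called. DESeq2 called Myl3 and Myoz2 (adjusted p 0.000319 and 0.00368), with 1.62% called. Across all alternatives the adjusted p of Myl3 ran from 0.000319 to 0.891 and that of Myoz2 from 0.00368 to 0.937. Without RA_0 replicate 1, 3 in place of 10 members met the rule of the study. The direction held in each of these settings.

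In PLA_1h all 11 transcripts were likewise lower in both libraries than in both RA_0 libraries, against 13.6% of all transcripts. The median log2 change was -2.35 (all transcripts: -0.01), and became -2.96 without PLA_1h replicate 1 and -1.58 without PLA_1h replicate 2. limma, edgeR and DESeq2 called none (0% of all by limma), with limma adjusted p of 1.00 for each. Myl3 at -2.57 ± 0.89 and Myl2 at -2.68 ± 1.17 had an unadjusted p under 0.05 (1.21% of all, lower) and met the rule of the study, which 0.673% of all transcripts met in this direction. The comparisons with RA_0 share its 2 libraries, so that these are not independent readings.

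After 34 days the median log2 change of the members lay nearer to RA_0 than at 1 h, for acupuncture and for saline, but with animals at both ends. By mean CPM, Myh7 (6216 against 5982 CPM), Myh7b (79.8 against 75.5 CPM) and NM_173111 of Tpm3 (62.4 against 40.2 CPM) were higher in PLA_34d than in RA_0, and the other members were lower. In AP_34d, 5 transcripts (Myh7, Myh7b, Myh6, Tnnc1 and Tnnt1) were lower in both libraries than in both RA_0 libraries, against 15.9% of all transcripts, and for Tnnc1 and Tnnt1 the nearest libraries were 1018 against 1019 CPM and 1010.3 against 1015 CPM. The median log2 change was -1.66 (all transcripts: -0.01), and became -2.76 without AP_34d replicate 1 and -0.34 without AP_34d replicate 2. limma called none of the members and none of all transcripts (0%), and Myh7b alone had an unadjusted p under 0.05 (2.25% of all, lower) and met the rule of the study (-2.08 ± 0.88, limma adjusted p 0.967, 1.33% of all transcripts in this direction). In PLA_34d no transcript was separated from RA_0, against 14.2% of all transcripts in the lower and 16.8% in the higher direction. The median log2 change was -1.54 (all transcripts: -0.01), from -1.88 ± 1.17 in Myl2 and -1.86 ± 0.95 in Myoz2 to 0.24 ± 0.61 in NM_173111 of Tpm3, and limma called none (0% of all). None of the members had an unadjusted p under 0.05 (0.819% of all, lower) or met the rule of the study (0.439%). Without PLA_34d replicate 1 the median became -3.26, and without PLA_34d replicate 2 it became 0.01.

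**Figure D2:**
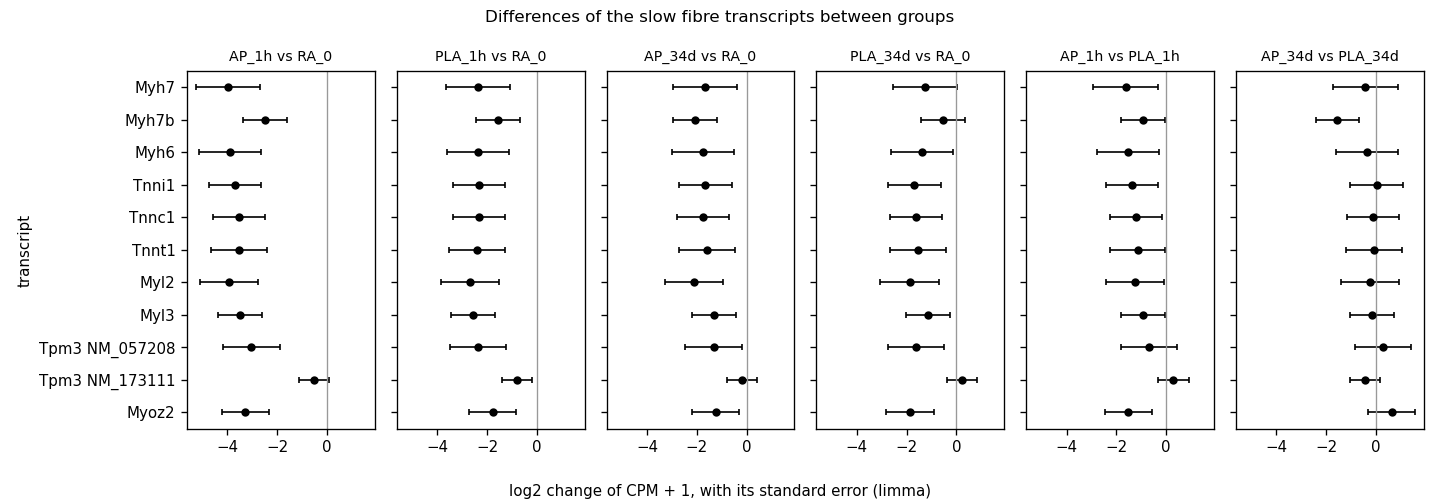
Log2 change of CPM + 1 with its standard error from limma (horizontal axis) for each slow fibre transcript (vertical axis) in 6 comparisons of groups. The AP_1h values lie farthest from 0, at a median of -3.52 against RA_0, and the AP_34d against PLA_34d values lie around 0 with errors of up to 1.29.

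Acupuncture was compared with saline at each time. At 1 h, 8 transcripts were lower in both AP_1h libraries than in both PLA_1h libraries, against 16.7% of all transcripts, the others being Myh7b and both of Tpm3. The median log2 change was -1.20 (all transcripts: 0.01), with Myh7 at -1.63 ± 1.29, Myoz2 at -1.52 ± 0.95 and Tnni1 at -1.37 ± 1.05, and limma called none (0% of all). The median became -1.86 without PLA_1h replicate 2 and -0.64 without PLA_1h replicate 1. No member reached an unadjusted p under 0.05 (2.74% of all, lower) or met the rule of the study (1.65%). At 34 days the groups overlapped in all 11 transcripts (of all transcripts, 15% were lower and 16% higher without overlap), at a median of -0.17 (all transcripts: 0.00) and with Myh7b farthest out at -1.54 ± 0.88 (limma adjusted p 0.883). limma called none (0% of all), and no member had an unadjusted p under 0.05 (2.96% of all, lower) or met the rule of the study (2.18%). That median turned to 1.70 without PLA_34d replicate 1 and to -1.76 without PLA_34d replicate 2. Over both times the median was -0.67, which became -1.51 without PLA_34d replicate 2 and turned to 0.16 without PLA_34d replicate 1 and 0.0055 without AP_34d replicate 2. The difference between the times had a median of 1.07 with errors from 0.86 to 1.83, which turned to -0.56 without PLA_34d replicate 2, again with no call by limma (0% of all). No member had an unadjusted p under 0.05, against 3.28% of all transcripts as lower over both times and 1.90% as higher in the difference between the times, or met the rule of the study, against 0.868% and 1.78%. limma-voom, edgeR and DESeq2 called no member either in any comparison other than AP_1h with RA_0. At 2 libraries against 2 an exact permutation test could not give a p under 0.333.

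Within a library, the members kept their proportions to different degrees. The spread of the level over the 10 libraries, as the SD of its log2, had a median of 1.66 over the 11 transcripts, and the spread of the ratio to Myh7 had a median of 0.71 over the other 10. With Tnnc1 as the reference the latter was 0.47, and with the sum of the members 0.43. The ratios are of reads without correction for transcript length, so only their differences between libraries are read here.

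The alpha heavy chain followed the beta chain most closely. The level of Myh6 was between 21.6% and 27.2% of that of Myh7 in all 10 libraries, a 1.26-fold range (SD of the log2 ratio 0.12) in genes that ranged over 26.7-fold and 33.0-fold. The adjacency and likeness of these genes, given above, bear on this ratio.

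The troponins formed the other close set. Tnni1 and Tnnc1 had the smallest spread of all 55 pairs of members, with an SD of the log2 ratio of 0.11 and a 1.32-fold range, and Tnni1 and Tnnt1 (0.19) and Tnnc1 and Tnnt1 (0.22) came next after Myh7 and Myh6 (0.12). Against Myh7 the troponins varied more, with SDs of 0.32 for Tnnt1, 0.41 for Tnni1 and 0.45 for Tnnc1. The lowest ratio of each was in PLA_34d replicate 1, in which Tnni1 was 9.20% of Myh7 against 15.8% to 25.4% elsewhere, Tnnc1 11.4% against 19.1% to 33.1% and Tnnt1 14.5% against 22.2% to 35.2%. This is the library in which Myh7 was highest and in which the leukocyte markers were raised. The part of the latter in the ratio was not tested. In both AP_1h libraries Tnnt1 and Tnnc1 were high against Myh7, at 29.1% and 35.2% for Tnnt1, above the 25.9% of the next library.

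The light chains and Myoz2 departed further. Myl3 was between 18.3% of Myh7 in PLA_1h replicate 1 and 140% in PLA_34d replicate 2, a 7.66-fold range (SD 0.94). Myl2 was between 9.42% in PLA_34d replicate 1 and 32.9% in PLA_1h replicate 2 (SD 0.69). Myoz2 was between 3.41% in PLA_34d replicate 1 and 28.4% in PLA_1h replicate 2, an 8.33-fold range (SD 0.85). In each of the 5 groups all 3 were lower against Myh7 in the same library. It was replicate 1 in AP_1h, PLA_1h and PLA_34d, and replicate 2 in RA_0 and AP_34d. The AP_1h pair differed little in Myl2 (24.5% and 24.8%). Against the troponins the light chains ranged over 3.18-fold (SD 0.51), from -0.41 in PLA_1h replicate 1 to 1.25 in PLA_34d replicate 2 on the log2 scale.

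The group means of the light chain ratios lay within the spread between animals. The mean log2 ratio of the light chains to Myh7 was -1.50 ± 0.54 (SD, n = 2) in RA_0, -1.24 ± 0.14 in AP_1h, -1.78 ± 1.46 in PLA_1h, -1.54 ± 0.62 in AP_34d and -1.77 ± 1.45 in PLA_34d. That of the troponins was -2.19 ± 0.10, -1.81 ± 0.16, -2.19 ± 0.30, -2.19 ± 0.16 and -2.56 ± 0.79 in the same order. In AP_1h, where the levels were lowest, the light chain ratios of -1.34 and -1.14 lay between those of the RA_0 pair (-1.12 and -1.88), and the troponin ratios of -1.92 and -1.69 lay above those of the RA_0 pair (-2.12 and -2.27).

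Of the remaining members, NM_173111 of Tpm3 had the widest ratio to Myh7 of all 10. Myh7b was 4.70% and 2.52% of Myh7 in AP_1h and 1.08% and 1.56% in RA_0 (SD over all libraries 0.88), with the lowest value, 0.620%, in AP_34d replicate 1. NM_173111 of Tpm3 was 10.0% and 5.79% of Myh7 in AP_1h and 0.539% and 0.888% in RA_0, an 18.6-fold range over all libraries (SD 1.40) that was wider than the range of its own level. NM_057208 was between 0.138% and 0.629% of Myh7 (SD 0.73), where counting error alone reached 0.59 on the log2 scale.

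**Figure D3:**
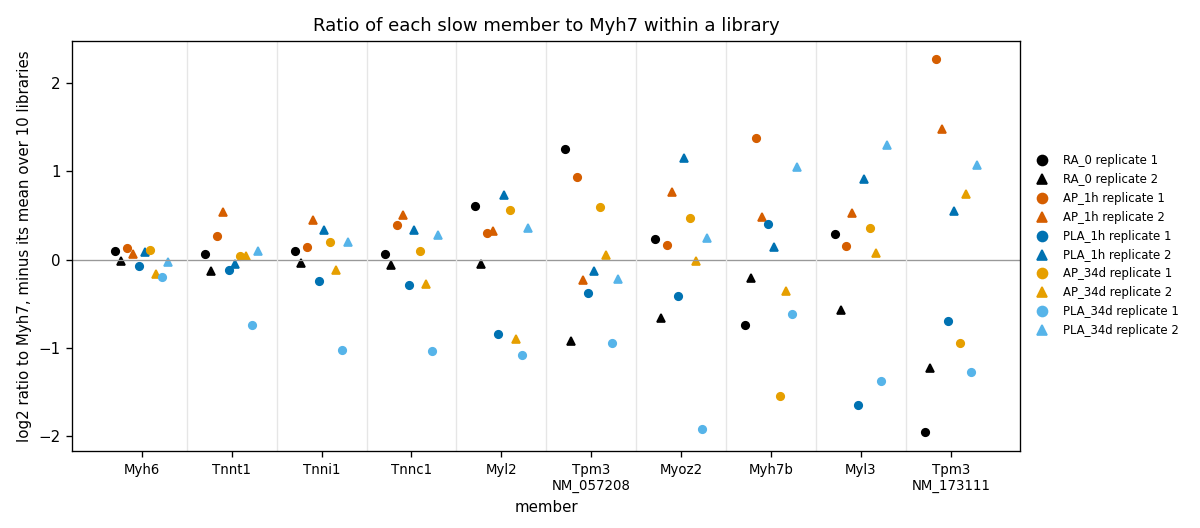
Log2 ratio of each member to Myh7 within a library, minus its mean over the 10 libraries (vertical axis), for 10 transcripts ordered by spread, with 1 point per library. Myh6 stays within a 1.26-fold range, the troponins depart furthest in PLA_34d replicate 1, and Myl3, Myoz2 and NM_173111 of Tpm3 spread over 7.66-fold, 8.33-fold and 18.6-fold.

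Fast fibres carry a paralogue of each of these proteins, and the slow to fast ratio within a library reads the balance of both programmes. The sum of the 8 slow members of these pairs was 18.3% and 15.5% of the sum of their fast paralogues in RA_0, 1.38% and 0.877% in AP_1h, 7.72% and 1.54% in PLA_1h, 11.03% and 2.07% in AP_34d, and 58.5% and 1.68% in PLA_34d. The ratio thus ranged over 66.7-fold. Without the heavy chains it ranged over 34.0-fold, and the mean of the log2 ratios of the pairs over 40.1-fold. Both RA_0 libraries were high and both AP_1h libraries were low, and in each of the other 3 groups replicate 1 lay far above replicate 2. The summed members ranged over 19.7-fold between libraries and the summed list of 12 fast sarcomere genes over 2.73-fold.

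Myh7 was 22.9% and 19.6% of Myh4, the fastest heavy chain, in RA_0, 1.03% and 0.566% in AP_1h, 11.99% and 0.997% in PLA_1h, 9.74% and 1.31% in AP_34d, and 89.8% and 1.16% in PLA_34d, a 158.6-fold range. The troponin pairs had narrower ranges that were close to each other, 39.2-fold for Tnni1 to Tnni2, 35.0-fold for Tnnc1 to Tnnc2 and 43.9-fold for Tnnt1 to Tnnt3. In RA_0 the replicates agreed within 0.01 on the log2 scale for Tnnc1 to Tnnc2 (11.7% in both) and for Tnnt1 to Tnnt3 (9.18% and 9.15%), although the levels of Tnnc1 and Tnnt1 differed 1.76-fold and 1.85-fold between them. The ranges of the others were 44.2-fold for Myl2 to Mylpf, 40.5-fold for Myl3 to Myl1, 23.3-fold for Tpm3 to Tpm1 and 16.9-fold for Myoz2 to Myoz1. Myl1 has 2 overlapping transcripts in the table and Tpm1 has 9, whose shared reads were dropped. Tpm3 was summed over both of its transcripts, and whether either encodes the muscle form is not given.

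On the log2 scale the ratio of the sums was lower than in RA_0 by a difference of -3.94 in AP_1h, -2.29 in PLA_1h, -1.82 in AP_34d and -0.76 in PLA_34d, where the spread between replicates, pooled over groups, was 1.95. The first 2 differences exceed that spread and the last 2 do not, which is no test. The spread was itself uneven, with an SD of 0.17 in RA_0, 0.46 in AP_1h, 1.64 in PLA_1h, 1.71 in AP_34d and 3.62 in PLA_34d. Without the heavy chains the differences from RA_0 were -3.42 in AP_1h, -2.15 in PLA_1h, -1.23 in AP_34d and -0.74 in PLA_34d. The AP_1h and RA_0 libraries did not overlap in any of the 8 pairs. These pairs come from the same libraries and their slow members moved together, so they are not separate readings. No share over other ratios was computed to set beside this. Of the fast heavy chains, Myh4 stood at 34987 and 65741 CPM in AP_1h, above both RA_0 libraries (32281 and 23345 CPM), whereas Myh1 and Myh2 were lowest in AP_1h. Myh1 stood at 6070 and 10230 CPM and Myh2 at 2938 and 5131 CPM, against 21230 to 38430 CPM and 6194 to 11884 CPM in the other 8 libraries, and neither passed the test against RA_0 (limma adjusted p 0.615 and 0.575).

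**Figure D4:**
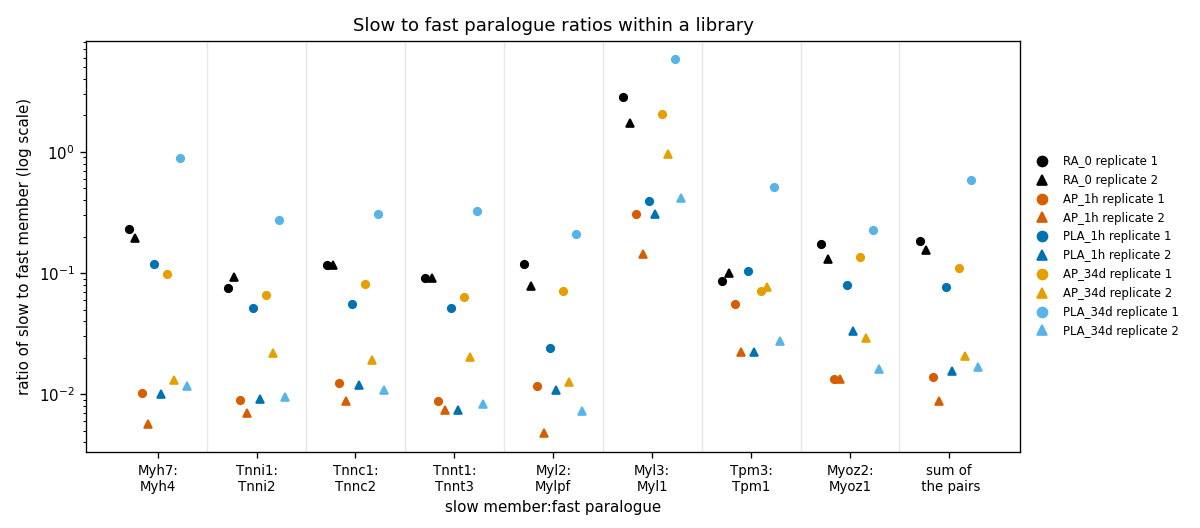
Ratio of each slow member to its fast paralogue within a library (log scale, ratio of CPM without correction for length), for 8 pairs and for the sum of the pairs, with 1 point per library. The sums reach 58.5% in PLA_34d replicate 1 and 0.877% in AP_1h replicate 2, and heights of different pairs are not comparable.

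Other genes that slow fibres express at higher level moved in part with the members. Of 13 transcripts tested from that list, limma called none in any of the 8 comparisons. Against RA_0, 6 of the 13 had an unadjusted p under 0.05 and met the rule of the study as lower in AP_1h, 2 in PLA_1h, none in AP_34d and 1 in PLA_34d, at medians of -1.68, -0.63, -0.37 and -0.70. Of all transcripts tested, 3.59%, 0.673%, 1.33% and 0.439% met that rule in the same direction and order. Ldhb, the heart-type lactate dehydrogenase subunit, differed most in AP_1h at -3.49 ± 0.58 (limma adjusted p 0.0934). It stood at 1099 and 512 CPM in RA_0, 70.8 and 61.3 CPM in AP_1h, 305 and 308 CPM in PLA_1h, 578 and 169.5 CPM in AP_34d, and 513 and 261 CPM in PLA_34d. Its replicates agreed more closely than those of the sarcomere members in PLA_1h and PLA_34d.

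Mybpc1, the slow myosin binding protein C, did not share the split of the other groups. It stood at 1228 and 1339 CPM in AP_1h and between 6682 and 11126 CPM in each of the other 8 libraries, those with low Myh7 included (AP_1h against RA_0 -2.63 ± 0.61, limma adjusted p 0.233). Mb, the oxygen store of oxidative fibres, stood at 7067 and 7719 CPM in AP_1h and between 9271 and 26405 CPM elsewhere.

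Of 14 tested transcripts of factors known to act on the slow programme, limma called none in any comparison. In AP_1h against RA_0, 5 of the 14 were lower with an unadjusted p under 0.05 (5.27% of all transcripts) and 3 met the rule of the study as lower (3.59% of all), at a median of the list of -0.55. Esrrg, the oestrogen-related receptor of oxidative muscle, stood at 3.78 and 3.92 CPM in AP_1h and between 9.18 and 22.1 CPM in the other 8 libraries (-1.95 ± 0.34 against RA_0, limma adjusted p 0.0988). Nfatc2, a target of calcineurin, stood at 4.97 and 2.24 CPM against 10.5 and 10.4 CPM in RA_0 (-1.38 ± 0.49, limma adjusted p 0.433). Sox6, the repressor of slow genes, was between 8.76 and 30.3 CPM with no separation of AP_1h from RA_0, and Prox1 was at 12.5 CPM in PLA_34d replicate 1 and at 2.73 CPM or lower in the other 9.

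Markers of other cells and of position that differed between AP_1h and RA_0 are given beside these values. Of the tendon list 3 of 6 genes were in the table, with summed levels of 79.2 and 230.4 CPM in RA_0 and 61.9 and 38.3 CPM in AP_1h. Tnmd stood at 5.96 and 15.7 CPM in RA_0 and 0.216 and 0.420 CPM in AP_1h, and Fmod at 37.7 and 198.6 CPM and at 10.8 and 4.90 CPM. Scx lay in the other direction, at 35.5 and 16.04 CPM in RA_0 and 50.9 and 33.0 CPM in AP_1h (0.75 ± 0.55, limma adjusted p 0.741). Of the positional list 8 of 10 genes were in the table, with summed levels of 130.0 and 161.6 CPM in RA_0 and 146.2 and 227.0 CPM in AP_1h. Hoxa10, a gene of posterior body position, stood at 13.6 and 13.2 CPM in RA_0, at 1.08 and 1.54 CPM in AP_1h and between 4.71 and 13.8 CPM in the other groups (-2.65 ± 0.39, limma adjusted p 0.0806). Hoxd10 stood at 5.01 and 2.67 CPM in RA_0 and 6.81 and 9.24 CPM in AP_1h (0.93 ± 0.48, limma adjusted p 0.624). Their part in the slow fibre values was not tested.

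Transcripts whose levels went most like the members were named by Pearson's r over the 10 libraries between log2(CPM + 1) and the mean z-score of the 10 members, among 8141 other transcripts with a mean of at least 5 CPM. The highest r belonged to Ncf1 (0.95), a subunit of the phagocyte oxidase, Rspo3 (0.95), an enhancer of Wnt signals, Tubb2b (0.92), a tubulin, Actr3b (0.91), an actin-related protein, Colq (0.90), the collagen tail of acetylcholinesterase, Fzd9 (0.90), a Wnt receptor, Cspg4 (0.90), a proteoglycan of pericytes, and Slc4a3 (0.90), an anion exchanger. Rspo3 stood at 13.6 and 8.02 CPM in RA_0, 1.84 and 2.099 CPM in AP_1h, 3.17 and 1.05 CPM in PLA_1h, 6.64 and 3.14 CPM in AP_34d, and 13.1 and 1.28 CPM in PLA_34d. The members themselves reached r between 0.86 (Myh7b) and 0.995 (Tnnc1) with the mean of the other 9.

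The lowest r belonged to Crem (-0.92), a cyclic AMP responsive regulator, Mybph (-0.92), a myosin binding protein of fast muscle, Tmbim6 (-0.91), a protein of the endoplasmic reticulum, and Atp6ap1 (-0.89), a subunit of the proton pump. Mybph stood at 259.8 and 645 CPM in RA_0, 1936 and 3633 CPM in AP_1h, 493 and 1306 CPM in PLA_1h, 342 and 998 CPM in AP_34d, and 183 and 1078 CPM in PLA_34d, and was thus higher in the replicate with less Myh7 in each of the 5 groups but AP_1h, where Myh7 differed by 1.03-fold. These values are descriptions of 10 libraries that share scaling and tissue, with no test.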

How the data were processed

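Total RNA of subcutaneous muscle from 10 rats was sequenced by Illumina HiSeq after TruSeq library preparation. Per the labels and the methods, reads were trimmed with cutadapt 1.2.1, aligned to rn4 with Bowtie2 2.1.0, counted per transcript with HTSeq 0.5.4p3 and scaled with edgeR 3.4.2. Whether counting used strand is not given in the sources used here. The deposited values are a signal, CPM with the authors' TMM factors. They were whole multiples of 1 read per library (100% of values within 0.01 reads), so read counts were recovered.

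limma 3.58.1 (R 4.3.3) was fitted to log2(CPM + 1) over all 10 libraries with 1 mean per group and a mean trend, keeping a transcript when some group had 1 CPM or more in each of its libraries. p-values were adjusted after Benjamini-Hochberg over 10259 transcripts, and 0.05 was the threshold. The rule of the study was read from the same fit. limma-voom, edgeR 4.0.16 and DESeq2 1.42.0 on recovered reads were alternatives, as were another pseudocount (0.25 or 4), dropping the filter or raising it to a mean of 5 CPM, library totals, DESeq2 size factors or quantile normalization as scaling, totals without the 20 most abundant transcripts, a fit without the mean trend or on the compared groups alone, a replicate block, transcripts summed per symbol and each library left out. The steps were tested on simulated data.

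Ratios were taken within a library and have no test. The text names all members, the fast paralogues of fixed pairs, up to 3 transcripts of each list and comparison by smallest p, and the 8 highest and 4 lowest transcripts by likeness. Genes outside that rule (Myh1, Myh2, Mb, Sox6 and Prox1) were named after their values were seen where it does not name them. The members and lists were chosen with earlier results of these data known. The lists were fast sarcomere, other slow, slow regulator, cardiac, developmental, skeletal muscle, tendon, adipocyte, leukocyte, red blood cell, keratinocyte, Schwann cell, endothelium and positional genes. Replicate numbers were not taken to pair animals, since deviations of the same numbered libraries correlated at between -0.46 and 0.45 over 10 pairs of groups. The limma p-values of the main fit set a difference against the spread between animals within groups. That spread was pooled over all 5 groups of 2 animals and drawn toward the mean trend. Python 3.11.15 and matplotlib 3.10.9 were used for the rest, and member sequences came from RefSeq (GRCr8), which matched all 10 symbols by name.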

Additional observations from a re-analysis of the deposited data

Results flagged for a closer look

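A value outside the measured members exceeded its level in the control group. The table holds a row for the precursor of miR-208b (Mir208b, NR_037354, rn4 chromosome 15, 33078016 to 33078127), which lies inside the span of Myh7, and for that of miR-499 (Mir499), inside that of Myh7b. Mir208b stood at 0.561 CPM in PLA_34d replicate 1 (5 reads), against 0.477 and 0.446 CPM in RA_0 (2 and 3 reads), and was at 0 in the other 7 libraries. The 3 libraries with a read were the 3 with the highest Myh7. At so few reads the difference from RA_0 was not detectable at this depth, and reads of an intron of Myh7 and of the precursor cannot be told apart. Mir499 was at 0 in all 10 libraries, which allows up to 0.297 to 0.716 CPM.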

How the results depend on the processing

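The count of members called (adjusted p under 0.05) stayed at 0 in every comparison and alternative but AP_1h against RA_0, where the fit of the compared groups alone called 9 and DESeq2 called 2. Counts by the rule of the study were less firm. For PLA_1h against RA_0 (2 members) it was 4 with a pseudocount of 0.25, with DESeq2 size factors and in DESeq2, 1 without a filter and in limma-voom, and 10 in the compared groups alone. For AP_34d against RA_0 (1) it was 0 without a filter, with library totals in place of TMM and without the 20 most abundant transcripts. For AP_1h against PLA_1h (0) it was 6 in the compared groups alone. DESeq2 gave 1 for PLA_34d against RA_0, AP_34d against PLA_34d, AP against PLA over both times and the interaction (0 each), and edgeR 1 for AP_34d against PLA_34d and AP against PLA over both times. The cause was not tested.

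A replicate block was also fitted, although the numbers were not taken to pair animals and the labels do not say what they stand for. With it, 10 members met the rule in PLA_1h and 4 each in AP_34d and PLA_34d against RA_0. In AP_34d against PLA_34d and in AP against PLA over both times 1 member met it, with no call. Replicate 1 was higher for 10 of 11 transcripts in RA_0 and PLA_1h, 11 in both 34 day groups and 4 in AP_1h.

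Leaving out 1 library moved the count by the rule to between 3 and 10 for AP_1h against RA_0 (10), 0 and 6 for AP_34d (1), 0 and 9 for PLA_1h (2) and 0 and 9 for PLA_34d (0), and to between 0 and 4 for AP_34d against PLA_34d, 0 and 6 over both times and 0 and 6 for the interaction (0 each). The lowest counts for AP_1h and PLA_1h against RA_0 came without RA_0 replicate 1. For AP_34d the lowest count came without RA_0 replicate 1 or 2, AP_1h replicate 1 or 2, or AP_34d replicate 2. The highest counts came without AP_34d replicate 1 for AP_34d and without PLA_34d replicate 1 for PLA_34d and the interaction. For PLA_1h the highest came without either PLA_34d library. For AP_34d against PLA_34d and both times it came without PLA_34d replicate 2. The median log2 change then ran from -4.11 to -3.10 for AP_1h, -2.96 to -1.58 for PLA_1h, -2.76 to -0.34 for AP_34d and -3.26 to 0.0056 for PLA_34d against RA_0, from -1.86 to -0.64 for AP_1h against PLA_1h, -1.76 to 1.70 for AP_34d against PLA_34d, -1.51 to 0.16 over both times and -0.56 to 2.70 for the interaction. The log2 difference of the slow to fast ratio ran from -3.32 to 1.80 for PLA_34d against RA_0, -3.62 to 1.504 for AP_34d against PLA_34d and -1.96 to 3.15 for the interaction. The ends of these 3 ranges lay without PLA_34d replicate 1 and without PLA_34d replicate 2. Library totals in place of TMM shifted the median log2 change of all transcripts by 0.15 for AP_1h and 0.23 for PLA_34d against RA_0, where the members' medians were then -3.36 and -1.27, and by -0.19 for AP_34d against PLA_34d (members -0.38). Of the log2 changes of single members under all alternatives, 2093 kept direction and side of the threshold, 11 came to pass it (the calls given first) and 80 changed sign without a call, 66 of them with 1 library left out. No sign changed in AP_1h or PLA_1h against RA_0. With 2 animals a group, differences as wide as those between the PLA_34d animals set what these comparisons can show, and NM_057208 of Tpm3 rested on as few as 6 reads.

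The members whose sign changed when 1 library was left out had these lowest and highest log2 changes. For AP_34d against RA_0 they were NM_057208 of Tpm3 -2.67 to 0.016, NM_173111 of Tpm3 -0.49 to 0.13 and Myoz2 -2.63 to 0.17. For PLA_34d against RA_0 they were Myh7 -3.54 to 1.04, Myh7b -1.96 to 0.89, Myh6 -3.59 to 0.80, Tnnc1 -3.26 to 0.0056, Tnnt1 -3.40 to 0.33 and NM_173111 of Tpm3 -0.85 to 1.34. For AP_1h against PLA_1h they were Myh7b -1.99 to 0.12 and NM_173111 of Tpm3 -0.066 to 0.66. For AP_34d against PLA_34d they were Myh7 -2.71 to 1.86, Myh6 -2.54 to 1.86, Tnni1 -1.65 to 1.70, Tnnc1 -1.76 to 1.4995, Tnnt1 -1.93 to 1.80, Myl2 -2.12 to 1.65, Myl3 -1.47 to 1.13, NM_057208 of Tpm3 -1.23 to 1.81, NM_173111 of Tpm3 -1.52 to 0.66 and Myoz2 -0.77 to 2.03. For AP against PLA over both times they were Myh7 -2.17 to 0.12, Myh6 -2.04 to 0.16, Tnni1 -1.51 to 0.16, Tnnc1 -1.48 to 0.15, Tnnt1 -1.54 to 0.33, Myl2 -1.69 to 0.20, Myl3 -1.20 to 0.11, NM_057208 of Tpm3 -0.95 to 0.56, NM_173111 of Tpm3 -0.61 to 0.48 and Myoz2 -1.14 to 0.26. For the interaction they were Myh7 -1.08 to 3.4951, Myh7b -2.03 to 0.82, Myh6 -1.01 to 3.39, Tnni1 -0.27 to 3.07, Tnnc1 -0.56 to 2.70, Tnnt1 -0.79 to 2.95, Myl2 -0.87 to 2.91, Myl3 -0.54 to 2.06, NM_057208 of Tpm3 -0.55 to 2.48 and NM_173111 of Tpm3 -1.82 to 0.37. Of the other alternatives, edgeR and DESeq2 gave Myh7 0.073 and 0.024 and Myh7b 0.097 and 0.051 in PLA_34d against RA_0. In AP_34d against PLA_34d they gave Myl2 0.0091 and 0.059, Myl3 0.040 and 0.081 and Tnni1 -0.28 and -0.23, where Tnni1 was also at -0.19 with library totals, -0.37 with quantile normalization and -0.14 without the 20 most abundant transcripts, and Tnnt1 was at 0.0093 in limma-voom.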

Other observations

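Developmental and regenerating muscle genes were measured beside the slow members. limma called none of 5 in any comparison, and in AP_1h against RA_0 2 higher and 1 lower had an unadjusted p under 0.05. Of all 10259 transcripts tested, 371 were higher and 541 lower at that threshold. Myog, a myogenic transcription factor, stood at 30.1 and 45.9 CPM in RA_0, 483 and 179 CPM in AP_1h, 179 and 54.1 CPM in PLA_1h, 46.1 and 231 CPM in AP_34d, and 31.9 and 40.8 CPM in PLA_34d (AP_1h against RA_0 2.95 ± 0.77, limma adjusted p 0.252). Myh3, the embryonic heavy chain, stood at 259.1 and 291 CPM in RA_0 and 61.2 and 112 CPM in AP_1h (-1.72 ± 0.36, limma adjusted p 0.191).

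Of the lists of other cells, limma called no transcript in AP_1h against RA_0, where an unadjusted p under 0.05 was reached by 2 lower in tendon, 1 higher in leukocytes, 1 lower each in endothelium and position and none in the others. Of all 10259 transcripts tested, 371 reached it as higher and 541 as lower. The median log2 changes were -3.04 for tendon (3 tested), 1.09 for leukocytes (3), -0.29 for adipocytes (5), -0.75 for red blood cells (4), 0.13 for keratinocytes (1), -0.87 for Schwann cells (3), -0.41 for endothelium (3), -0.13 for skeletal muscle (5), -0.12 for cardiac genes (2), 0.28 for positional genes (5) and -0.03 for fast sarcomere genes (15). The last had no member that met the rule of the study in that comparison.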
